A study of Mus musculus with 12 samples.

Results

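RNA sequencing of 2 fractions of mouse liver measured a pair of genes that carry a long noncoding label and reach an appreciable level, Gm5113 and Gm5111. They were the genes of the count table that had the transcript type lincRNA or antisense and a mean of at least 1 TPM (a read count scaled for transcript length and for the library) over the 6 lysate libraries. These were 2 of 13 genes with either label and 2 of 35498 genes in all. They were selected on their measured lysate level, so that level is given as a description, and it also enters every comparison of the fractions below.

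The livers came from male C57BL/6N mice aged 9 to 12 weeks, taken 3 h after feeding that ended an overnight fast. No allele or agent is named, and both groups share this state. The lysate group is the postnuclear liver lysate, cleared of nuclei and debris at low speed. The WAM group is the wrappER-associated mitochondria fraction made from that lysate, in which mitochondria are recovered with the rough endoplasmic reticulum (ER) curved around them. There were 6 libraries of each, 1 of each kind per mouse, made from poly(A) RNA with a kit that keeps strand. Because nuclei had been removed, RNA that stays in the nucleus was left out by design, and a lower level in bulk material cannot be told apart from fewer cells of a type that carries the RNA.

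Long noncoding RNAs are transcripts longer than the small regulatory RNAs that are not translated into a conventional protein. Many act in the nucleus on chromatin or splicing, while those exported to the cytoplasm can bind proteins, microRNAs or ribosomes. Several RNAs first annotated as noncoding were later found to encode small proteins, some of them in mitochondria. No function is assigned here to Gm5113 or Gm5111, which the table names only as predicted genes.

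The annotations disagree on how noncoding these genes are. Gm5113 (ENSMUSG00000066647) lies at 30169875 to 30182324 on chromosome 7, plus strand, in GENCODE M21 on GRCm38, where its gene type is lincRNA, and RefSeq calls it lncRNA. Its 1 annotated transcript has 3 exons and 5117 bases, and the longest open reading frame from ATG to stop spans 141 codons. Gm5111 (ENSMUSG00000052730) lies at 48589445 to 48590584 on chromosome 6, plus strand. GENCODE gives it the type processed_transcript, and RefSeq lists it as protein coding. Its lincRNA transcript has 2 exons, 964 bases and an open reading frame of 190 codons, and a second one, labelled retained_intron, has 931 bases and no frame over 43 codons. An open reading frame in a sequence is not evidence of translation, and the deposited counts hold no measure of it. The label long noncoding therefore holds in both annotations for Gm5113. For Gm5111 it holds only in GENCODE, where processed_transcript is counted here as a long noncoding type, and not in RefSeq.

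The 2 start regions are shown because the starts of these genes differ in base composition and in what lies beside them. Each window runs 5′ to 3′ from RefSeq's GRCm38.p6 table, from 250 bases before to 50 after RefSeq's start of the gene, on the plus strand, chr7:30169625-30169924 for Gm5113 and chr6:48589195-48589494 for Gm5111. In the first, capitals mark 2 motifs; in the second, where no motif searched was present, capitals mark the 50 bases after the start.
Gm5113: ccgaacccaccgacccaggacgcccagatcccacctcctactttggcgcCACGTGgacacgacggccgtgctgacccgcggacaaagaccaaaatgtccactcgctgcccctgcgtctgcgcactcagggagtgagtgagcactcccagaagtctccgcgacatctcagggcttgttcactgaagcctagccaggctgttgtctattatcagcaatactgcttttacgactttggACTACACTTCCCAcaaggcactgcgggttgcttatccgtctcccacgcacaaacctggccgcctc
Gm5111: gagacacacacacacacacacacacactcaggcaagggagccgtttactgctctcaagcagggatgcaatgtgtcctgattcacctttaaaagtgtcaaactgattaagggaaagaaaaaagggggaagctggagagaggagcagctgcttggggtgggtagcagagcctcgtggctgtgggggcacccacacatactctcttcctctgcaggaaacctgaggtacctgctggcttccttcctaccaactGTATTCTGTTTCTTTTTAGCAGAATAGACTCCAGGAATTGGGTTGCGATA
The Gm5113 window had 59.0% G and C and 20 CpG dinucleotides, against medians of 52.7% and 7 over 32851 windows of the same length. The Gm5111 window had 50.3% and 3 CpG dinucleotides. In all, 3 motifs were searched on both strands. ACTACA and TCCCA 2 bases apart, the element known to be bound by ZNF143 in human cells, starts at position -15 of the Gm5113 window, counted from the first transcribed base as 1, and 1.47% of all windows hold it. CACGTG, a palindromic E-box, starts at -201, and 7.15% hold it. TATAAA, the TATA box, occurs in 13.6% of windows and in neither of these. The first 2 motifs were chosen after the Gm5113 sequence had been read, and a match of letters is a description, not a binding site.

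Gm5113 had the higher mean level of the pair in lysates, and Gm5111 was the higher of them in the lysates of mice 5 and 6. The lysate level of Gm5113 ran from 1.25 to 2.93 TPM with a median of 1.67, and its WAM level from 0.27 to 0.65 TPM with a median of 0.50. On this scale the groups did not overlap, and the WAM library was lower in 6 of 6 mice. How many of all genes also separate on this scale was not counted. On log2(TPM + 1), limma called 85.5% of 11181 tested genes lower in WAM, so the separation is not read as particular to Gm5113. The means were 1.82 ± 0.60 TPM in lysates and 0.48 ± 0.13 TPM in WAM (SD over 6 libraries each). The highest lysate library was that of mouse 1 and the lowest WAM library that of mouse 5.

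**Figure D1:**
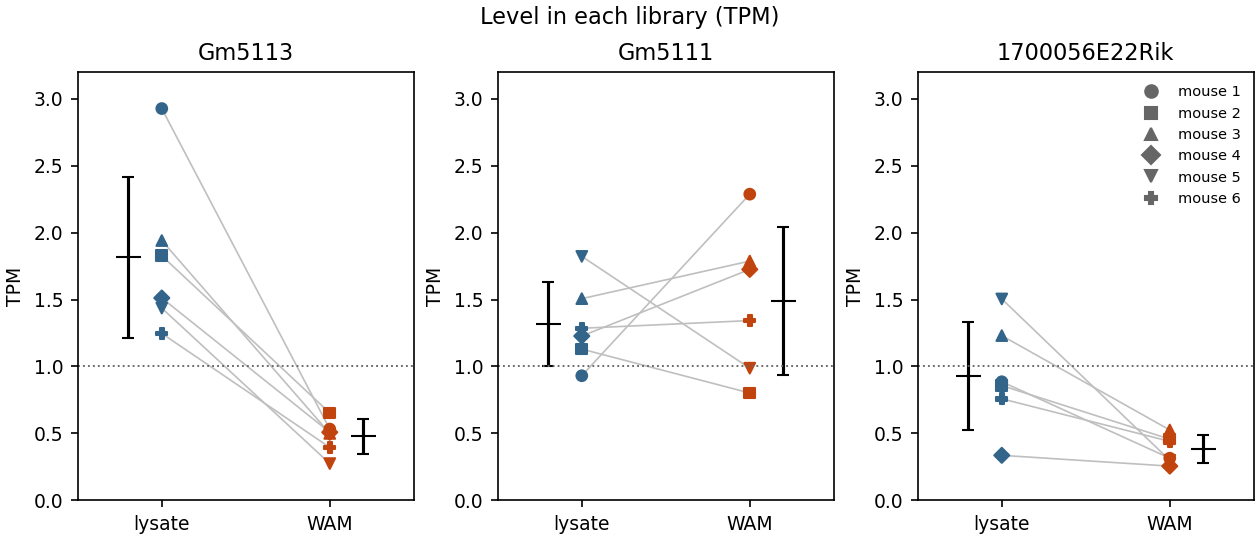
Level of each gene in TPM (y axis) in the lysate and WAM library of each mouse, joined by a line, with mean ± SD of 6 libraries beside the points and a dotted line at 1 TPM. Gm5113 was lower in the WAM library of 6 of 6 mice and the labelled gene next below the threshold, 1700056E22Rik, also in 6 of 6, while Gm5111 was higher in 4 of 6.

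That drop in TPM was shared by most genes. The 13 mRNAs of mitochondrial DNA took 2.69% ± 0.37 of lysate counts and 17.9% ± 4.6 of WAM counts (SD over 6 libraries each). The part of this rise in the drop of other genes was not tested. With TMM, a scaling that sets the bulk of genes to be equal on average, Gm5113 held 2.89 to 6.64 library-scaled counts (CPM) in lysates and 1.82 to 4.08 CPM in WAM, and the groups overlapped. Its log2 fold change of WAM over lysate was -0.35 (SE 0.25, n = 6 each; edgeR quasi-likelihood test, Benjamini-Hochberg adjusted p = 0.247), so it was not called, and the value was again -0.35 with the mitochondrially encoded genes left out. With the mouse as a block the edgeR adjusted p was 0.0846, in a fit that called 36.2% of genes lower. The median over the 11181 genes tested was -0.08, and 28.7% of them had a lower value than Gm5113. With scaling by library totals instead, Gm5113 was called lower at -1.46 (edgeR adjusted p = 8.9e-05), where the median of all genes was -1.19 and 77.4% of genes were called lower. On log2(TPM + 1) it was called lower at -0.91 (limma adjusted p = 9.1e-06), where 85.5% of genes were. It was also called lower on log2(TPM + 0.1) at -1.71 and on log2(TPM + 5) at -0.31, with 85.6% and 84.7% of genes, and with the authors' mitochondrial content coefficient at -3.63, with 99.7%. Relative to the median of all tested genes it lay below in 13 of 15 settings with the filter on low counts. Of these 15, 6 only leave out 1 mouse each, and a change of library scaling moves all genes by nearly the same amount. That count is thus a description. Gm5113 lay above with log2(TPM + 1) and log2(TPM + 5), where the added constant shrinks the change of a gene at 1.82 TPM. Those 2 settings therefore cannot place it among genes of higher level. On the TMM scale it lay -0.27 from the median beside an SE of 0.25, so its place there is uncertain.

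Gm5111 had overlapping TPM levels in lysate and WAM. Its lysate level ran from 0.93 to 1.82 TPM with a median of 1.26, and its WAM level from 0.80 to 2.29 TPM with a median of 1.53. The groups overlapped, and the WAM library was higher in 4 of 6 mice. The lowest WAM library was that of mouse 2 and the highest that of mouse 1, whose lysate was the lowest of its group. The means were 1.32 ± 0.31 TPM in lysates and 1.49 ± 0.55 TPM in WAM (SD over 6 libraries each).

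These levels rest on few reads. Gm5111 had 4.01 to 8.09 estimated counts per lysate library and 5.03 to 13.9 per WAM library, or 37 and 60 over the 6 libraries of each fraction, with exact Poisson 95% intervals of 26.1 to 51.0 and of 45.8 to 77.2 that cover counting error only. Gm5113 had 314 and 123. The filter on low counts left Gm5111 out, so with it 1 of 2 genes was tested and 0 of 2 were called by edgeR's quasi-likelihood test, against 29.5% of all genes called higher and 28.8% called lower. In that edgeR fit across all genes the unadjusted p of Gm5113, the 1 gene of the pair tested, was 0.186, so 0 tested genes were past 0.05, and DESeq2 on the same genes gave it an adjusted p of 0.281. Without the filter, 19449 genes were tested, of which 16.8% were called higher and 16.4% lower.

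In that fit Gm5111 was called higher in WAM, with a log2 fold change of 1.71 (SE 0.33, n = 6 each; edgeR adjusted p = 0.00056), or edgeR adjusted p = 7.0e-06 with the mouse as a block, where 19.7% of genes were called higher. It held 0.35 to 0.63 CPM in lysates and 0.76 to 2.64 CPM in WAM on the TMM scale, and 6 of 6 mice were higher in WAM. The groups did not overlap, but the share of all genes with such a separation was not counted. The unfiltered fit was taken as the base for Gm5111 after its counts had been seen. DESeq2 also called it, at 1.78 (adjusted p = 2.9e-05; 17.8% of genes called higher). Leaving out 1 mouse at a time gave 1.47 to 1.86 (edgeR adjusted p from 0.00051 to 0.0053). The call was not reached with library totals (0.62, edgeR adjusted p = 0.127) or on log2(TPM + 1) (0.08, limma adjusted p = 0.655). It turned to -1.62 (edgeR adjusted p = 0.00092) when each WAM library was divided by the authors' mitochondrial content coefficient, under which 84.3% of genes were called lower. The direction for Gm5111 thus depends on what is taken as constant between the fractions.

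**Figure D2:**
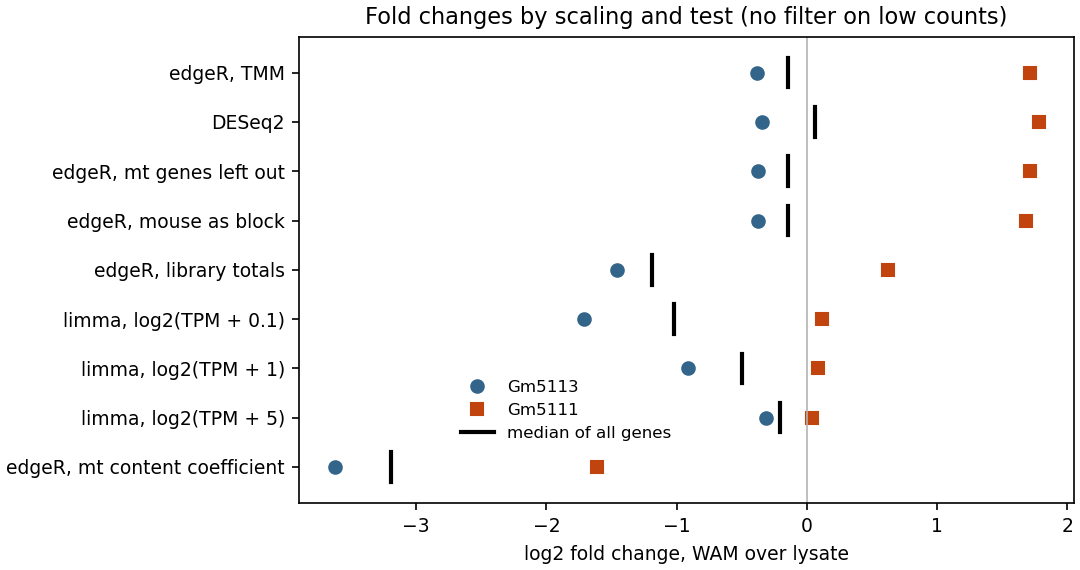
Log2 fold change of WAM over lysate (x axis) for Gm5113 and Gm5111 under 9 combinations of scaling and test, each without a filter on low counts, with the median of all genes of that fit as a bar. Gm5111 lay right of the bar in each, from 0.24 to 1.86 above it, and Gm5113 lay left of it in each. The value of Gm5111 fell from 1.71 to -1.62 when the scaling changed, which moves the bar along with the genes.

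The position relative to other genes did not turn. Gm5111 was above the median of all genes in 15 of 15 settings without the filter, by 0.24 to 2.02 on the log2 scale. A change of library scaling moves all genes by nearly the same amount, and 6 of the settings only leave out 1 mouse each. That count was thus largely fixed in advance and is a description. Of 1244 genes with a mean lysate level of 1 to 2 TPM, which share its level, 98.9% had a lower log2 fold change than Gm5111 and 37.8% a lower one than Gm5113 on the TMM scale, and their median was -0.18. By the authors' enrichment formula, recomputed from the TPM values as coefficient-divided WAM over lysate in percent, Gm5111 reached 25.9% ± 13.02 and Gm5113 6.29% ± 3.49 (SD, n = 6 mice), against a median of 8.07% over 11272 genes of at least 1 TPM. Gm5111 ranged from 8.46% in mouse 5 to 49.0% in mouse 1.

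**Figure D3:**
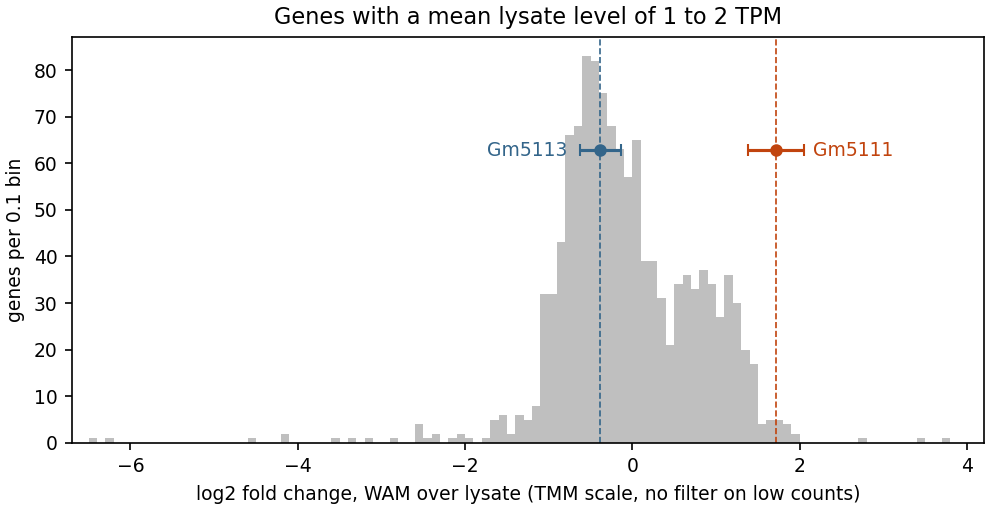
Number of genes per bin (y axis) of log2 fold change, WAM over lysate (x axis), among 1244 genes with a mean lysate level of 1 to 2 TPM in the fit without a filter, with Gm5113 and Gm5111 as points with SE. Gm5111, at 1.71, exceeded 98.9% of them and Gm5113, at -0.38, exceeded 37.8%.

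A ratio of 2 genes within a library does not depend on the scaling of that library. The ratio of Gm5111 to Gm5113 ran from 0.32 to 1.27 in lysates, with a mean of 0.80 ± 0.33, and from 1.23 to 4.30 in WAM, with a mean of 3.25 ± 1.05 (SD, n = 6 each, in TPM). It was higher in WAM in 6 of 6 mice, and the groups overlapped only through mouse 2, whose WAM ratio of 1.23 lay just under the 1.27 of the lysate of mouse 5. The mean difference was 2.04 on the log2 scale, or 4.12-fold (two-sided exact permutation p = 0.00433 over 924 assignments, adjusted p = 0.00649 over 3 ratios). With labels exchanged only within mice the adjusted exact p was 0.0469, from the smallest p possible, 0.03125. The 3 ratios were chosen after the members' values had been seen. Leaving out 1 mouse at a time gave differences from 1.70 to 2.25.

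**Figure D4:**
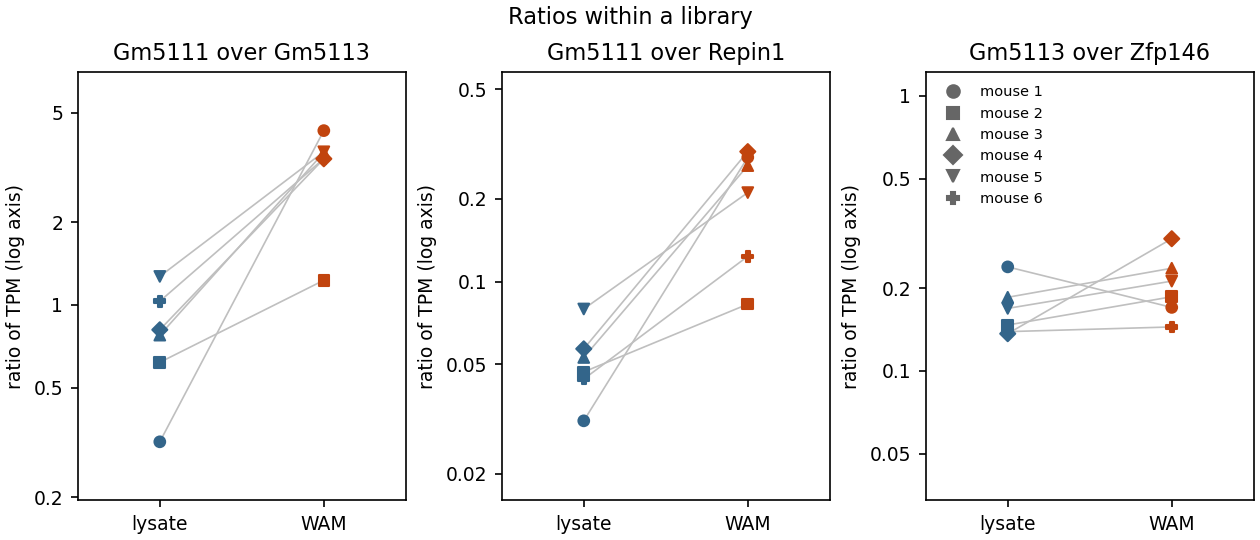
Ratios of TPM between 2 genes in the same library (y axis, log scale) for the lysate and WAM library of each mouse, joined by a line. The ratios with Gm5111 on top rose in 6 of 6 mice, and Gm5113 over Zfp146 rose in 5 of 6 with overlapping groups.

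Their neighbours did not share 1 pattern. Zfp146, a zinc finger protein gene on the opposite strand, starts 125 bases from Gm5113, so the pair diverges from 1 short region, and the printed window reaches into the start of Zfp146. Zfp146 went from 10.6 ± 1.6 to 2.41 ± 0.86 TPM and was called lower at -0.58 on the TMM scale (SE 0.18; edgeR adjusted p = 0.0129). The ratio of Gm5113 to Zfp146 was 0.169 ± 0.039 in lysates and 0.208 ± 0.056 in WAM (SD over 6 libraries each). The difference of 0.29 on the log2 scale did not pass (two-sided exact permutation p = 0.184, adjusted p = 0.184). With labels exchanged only within mice the exact permutation p was 0.281. Neither p shows that the ratios are equal. Cox7a1, a cytochrome c oxidase subunit gene and the next gene downstream of Gm5113, did not pass the filter and had 0.67 without it (SE 0.46; edgeR adjusted p = 0.296). Capns1, a calpain subunit gene, had 0.15 (SE 0.08; edgeR adjusted p = 0.105).

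Next to Gm5111 lies Repin1, a zinc finger gene that starts 4438 bases downstream on the same strand. Repin1 went from 26.01 ± 3.56 to 7.65 ± 2.35 TPM, with a log2 fold change of -0.24 on the TMM scale (SE 0.11; edgeR adjusted p = 0.0851). With the mouse as a block Repin1 was called lower, at -0.24 (SE 0.07; edgeR adjusted p = 0.0055). The ratio of Gm5111 to Repin1 was 0.0519 ± 0.0161 in lysates and 0.210 ± 0.089 in WAM (SD over 6 libraries each), with no overlap between groups. The difference was 1.93 on the log2 scale (exact two-sided permutation p = 0.00216, the least that 924 assignments allow, adjusted p = 0.00649). With labels exchanged only within mice the exact permutation p was 0.03125, the smallest possible, and the adjusted p was 0.0469. Rarres2, which encodes the secreted protein chemerin, starts 16656 bases upstream on the other strand and was called higher at 1.497 (SE 0.20; edgeR adjusted p = 1.8e-05), from 433 ± 94 TPM in lysates to 436 ± 128 TPM in WAM. Lrrc61, upstream on the same strand as Gm5111, had -0.31 (SE 0.20; edgeR adjusted p = 0.213), and Zfp775, a zinc finger gene downstream, had 0.17 (SE 0.19; edgeR adjusted p = 0.449).

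**Figure D5:**
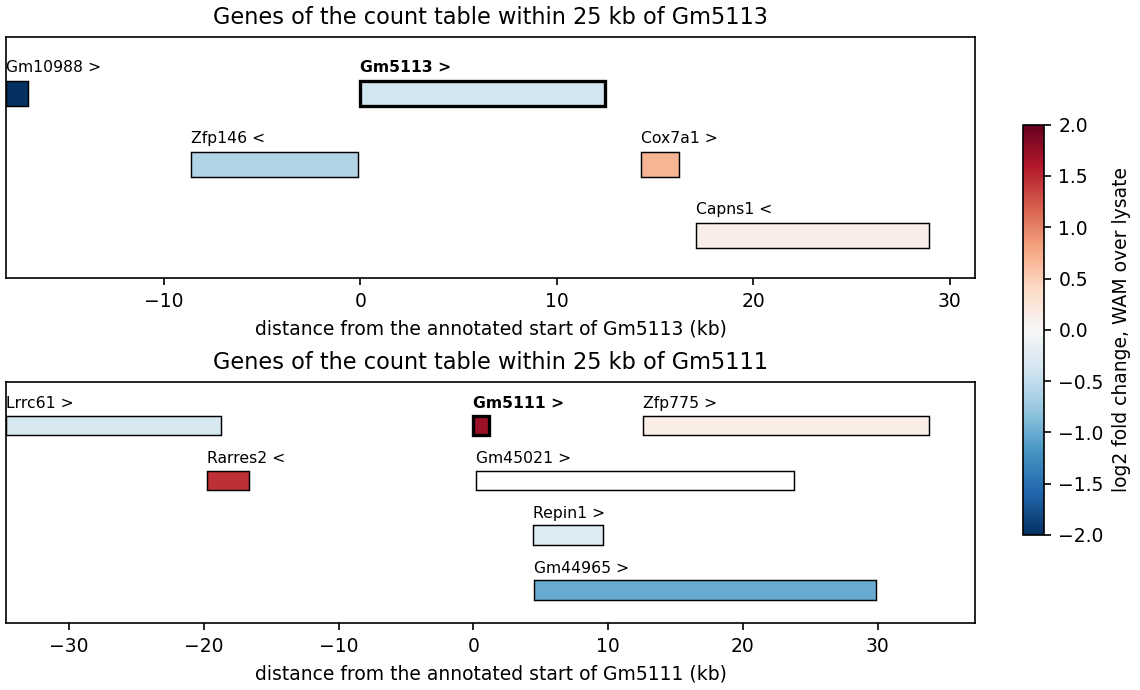
Genes of the count table within 25 kb of Gm5113 and of Gm5111, placed by distance in kb from the annotated start of each, with arrows for strand and colour for the log2 fold change of WAM over lysate without a filter. Colours beyond 2 in size are capped, a white bar without colour (Gm45021) is listed at 0, and Zfp146 and Gm5113 start 125 bases apart.

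One overlap bears on the count of Gm5111. Gm45021, annotated as protein coding on the same strand from 165 bases downstream of the Gm5111 start, contains 24.1% of the 31-base words of the Gm5111 transcripts, and 25.3% occur in some other gene. Gm45021 was listed at 0 in all 12 libraries. How reads were shared between these transcripts is not stated, and the level of Gm5111 is uncertain to that extent.

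Of the other 11 labelled genes, 1 lay near the threshold. 1700056E22Rik, labelled antisense but protein coding in both GENCODE and RefSeq, was just outside at 0.93 ± 0.40 TPM in lysates and 0.38 ± 0.11 TPM in WAM (SD over 6 libraries each), and Gm5111 was just inside at 1.32 TPM. It lies within Dusp10, a phosphatase gene on the opposite strand that had a log2 fold change of -0.44 (SE 0.21; edgeR adjusted p = 0.0804). Its own log2 fold change without the filter was 0.25 (SE 0.42; edgeR adjusted p = 0.679). It was called lower on log2(TPM + 0.1), log2(TPM + 1) and log2(TPM + 5), at -1.02, -0.46 and -0.14 (limma adjusted p = 0.0065, 0.0085 and 0.0124). In these fits 57.5%, 56.1% and 55.0% of genes were called lower. With the coefficient 1700056E22Rik was called lower at -2.998 (edgeR adjusted p = 1.1e-06), where 84.3% of genes were and the median of all genes was -3.19. Gm5464 and Gm5878 had reads but lower levels, and the other 8 labelled genes were at 0 in all 12 libraries.

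The count table holds few long noncoding genes. Of 13374 long noncoding genes in GENCODE M21, 17 have a row, or 0.127%, against 21915 of 22028 protein-coding genes. All 13 labelled genes carry a protein accession in the table, and 6 of the 13 have the gene type protein_coding in GENCODE. Most long noncoding RNAs were thus not measured in these tables, and their distribution between lysate and WAM is not analysed here. By GENCODE gene type in place of the table's label, 4 genes reached 1 TPM, the pair above with 1810032O08Rik and Gm20939. 1810032O08Rik had 1.46 ± 0.40 TPM in lysates and 1.04 ± 0.57 TPM in WAM, and Gm20939 had 1.16 ± 0.47 and 0.27 ± 0.24 TPM (SD over 6 libraries each). Neither was called without the filter (edgeR adjusted p = 0.288 and 0.409).

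Of 75 symbols on 7 lists of known noncoding RNAs and of small-protein genes once thought noncoding, 9 had a row, and 0 were among the pair described here. The lists of imprinted, miRNA host, nuclear-retained, cytoplasmic and liver long noncoding RNAs had none. Of 21 snoRNA host genes, whose introns carry small nucleolar RNAs, 1 had a row. It was Snhg11, at 0.68 ± 0.23 TPM in lysates and 0.14 ± 0.17 TPM in WAM (SD over 6 libraries each), and it did not pass the filter; without it the log2 fold change was -1.29 (SE 0.43; edgeR adjusted p = 0.0285).

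The list of small-protein genes was the one with genes tested. Its 14 symbols include pairs of names for 1 gene, and 8 genes had a row, of which 4 were tested. Of these, 3 were called higher in WAM, 0 lower and 1 not, where 29.5% of all genes were called higher and 28.8% lower. Their median log2 fold change was 0.58, against -0.08 over all genes. 1500011K16Rik, which encodes the inner membrane microprotein mitoregulin, rose by 1.08 (SE 0.15; edgeR adjusted p = 2.2e-05). 1190007I07Rik, the gene of the complex III assembly factor brawnin, rose by 0.70 (SE 0.13; edgeR adjusted p = 0.00050). Atp5mpl, an ATP synthase subunit, rose by 0.46 (SE 0.08; edgeR adjusted p = 0.00013). In TPM all 3 had lower means in WAM, from 12.5 ± 1.4 to 9.26 ± 2.61 for the first, so their direction too is that of the TMM scale. Cyren, a regulator of DNA end joining, had 0.37 (SE 0.26; edgeR adjusted p = 0.239).

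Libraries held 7400155 to 12023984 estimated counts, and the pair together held 0.00070% ± 0.00021 of lysate counts and 0.00034% ± 0.00009 of WAM counts (SD over 6 libraries each). Most of that was Gm5113, with 314 counts in lysates and 123 in WAM, against 37 and 60 for Gm5111. The share was lower in WAM in 6 of 6 mice, but was higher in 1 mouse with the mitochondrially encoded genes left out. Hepatocyte markers made up 4.93% to 8.21% of counts in lysates and 4.75% to 9.68% in WAM, with all 9 detected, so both fractions carry the labelled tissue. Macrophage markers were at most 0.0718% in lysates and 0.0953% in WAM. They were higher in WAM in 6 of 6 mice, with mouse 5 the highest in both fractions. Endothelial and stellate markers stayed at or under 0.0276% in every library, and cholangiocyte and neutrophil markers at or under 0.00165%. Cholangiocyte markers held 0.00139% ± 0.00021 of lysate counts and 0.00063% ± 0.00015 of WAM counts, neutrophil markers 0.00038% ± 0.00060 and 0.00014% ± 0.00019 (SD over 6 libraries each). Both were lower in WAM in 6 of 6 mice. Each marker had reads in at least 1 library. The part of these cells in the values of Gm5111 and Gm5113 was not tested.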

How the data were processed

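Poly(A) RNA was isolated per the labels' protocols, and 250 ng went into directional libraries. The deposited estimated counts per gene were made by the authors; the submitters' processing notes list kallisto 0.44.0, fastp 0.12.4, R 3.5.0 and DESeq2 1.20.0 with no roles. Build, annotation and use of strand: not given in the sources used here. TPM values per gene and library were deposited by the authors too. Another 60 per-sample columns stayed unused.

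The 48042 lines were reduced to 35498 genes and the estimated counts, 32.6% of non-zero ones not whole, were rounded. All genes were tested with edgeR 4.0.16 (limma 3.58.1, R 4.3.3; TMM, filterByExpr, quasi-likelihood F test), with a call at an adjusted p (Benjamini-Hochberg) under 0.05. DESeq2 1.42.0, other scalings, no filter, leaving out mice and limma on log2(TPM + 0.1, 1 or 5) were alternatives. SE belongs to the log2 fold change, and n counts libraries. The count test was tested on simulated data. Within-library TPM ratios used exact permutation tests. GENCODE M21 and RefSeq tables gave positions, types and sequences, and need not be the authors' annotation.

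Column names give the mouse, so equal numbers mark 1 animal; deviations of its libraries correlated with r between 0.371 and 0.721, and other combinations reached 0.358 at most. No replicates agreed within sampling noise (chi-square per degree of freedom at least 11.3). Genes are named if among the 10 with the highest lysate level or fold changes, on a list, next to the 1 TPM threshold, or holding an outlying library; the neighbours and genes of other types were added after their values were seen. The genes, lists and tests were chosen with earlier results of these data known. Some items are not reported here.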

Additional observations from a re-analysis of the deposited data

Results flagged for a closer look

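Among 15 groups of 6 libraries examined for a library far from the rest, 1 was found, and chance gives about 1 in 20 such groups. The WAM library of mouse 2 had a ratio of Gm5111 to Gm5113 of 1.23, below the next lowest WAM ratio of 3.399, while the other WAM libraries reached 4.30. It combines the lowest Gm5111 level in WAM (0.80 TPM) with the highest Gm5113 level (0.65 TPM), and mouse 2 also had the lowest mitochondrial content coefficient, 2.84 against 4.16 to 6.40 in the other mice; the part of that in the ratio was not tested. Without mouse 2 the difference of the log2 ratio was 2.25, against 2.04 with it. The exact two-sided permutation p without it was 0.00794, the least possible with labels exchanged across mice. An exchange within the 5 remaining mice, which keeps the pairing, was not run.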

How the results depend on the processing

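Neither gene was called by edgeR with the filter, since 1 was tested and its adjusted p was 0.247. The number called lower was 1 with library totals, where 77.4% of all genes were, and with the mitochondrial content coefficient, where 99.7% were. It was also 1 with limma on log2(TPM + 0.1), log2(TPM + 1) and log2(TPM + 5), where 85.6%, 85.5% and 84.7% were. The number called higher was 1 without the filter, where 16.8% of all genes were. The median log2 fold change was -0.35, and -1.46 with library totals, -1.71 with log2(TPM + 0.1), -3.63 with the coefficient and 0.67 without the filter, where both genes enter; leaving out 1 mouse gave -0.50 to -0.24. With the mouse as a replicate block it was -0.34, and neither gene's call changed (Gm5111 1.68 without the filter), while the neighbour Repin1 was then called lower. Gm5111 was reversed with the coefficient, at -1.62, and leaving out 1 mouse gave 1.47 to 1.86. 1700056E22Rik was reversed with library totals (-0.81), the coefficient (-2.998) and the 3 TPM settings (-1.02, -0.46 and -0.14). The number of genes was 0 at 2 or at 5 TPM, 1 with the threshold in WAM, 0 for antisense alone and 4 by GENCODE gene type, a selection added after seeing the data. The difference of the summed share was -0.00036 percentage points of counts, and -0.00012 of TPM; leaving out 1 mouse gave -0.00042 to -0.00031. With labels exchanged across mice, which ignores the pairing, ratios kept their side of the threshold with estimated counts and without any 1 mouse. An exchange within mice was not run without 1 mouse, where no p under 0.05 is possible. The differences without 1 mouse ran from 1.70 to 2.25 for Gm5111 to Gm5113 and from 1.68 to 2.15 for Gm5111 to Repin1. For Gm5113 to Zfp146 they ran from 0.12 to 0.45. The cause of these shifts was not tested. Depth limits Gm5111, at 4.01 to 13.9 estimated counts per library, and 1700056E22Rik, at 2 to 9.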
